A study of Rattus norvegicus with 40 samples.

Results

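Stub1 encodes a ubiquitin ligase also named Chip, and it was the only gene model with that symbol among 31677 models, 14949 of which carried a symbol. It was chosen by its measured values, because high salt moved it in opposite directions in circulating T cells of the 2 rat colonies. The study sequenced RNA of T cells from the circulation and from the kidney of Dahl salt-sensitive rats (SS), a strain whose blood pressure rises on salty food. The 40 libraries fell into 10 groups of 4, with 3 rats pooled for every library. Rats labelled SS/MCW were sampled on LS (low-salt) chow at 7 weeks of age, on LS chow at 10 weeks, and at 10 weeks after 3 weeks on HS (high-salt) chow. Rats labelled SS/CRL were sampled at 10 weeks on LS chow and at 10 weeks after 3 weeks on HS chow. The composition of the chows is not given in the labels, and all groups carried the SS background. Each of these 5 groups of rats gave circulating and kidney cells.

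The Stub1 protein joins chaperones to protein disposal. Its tetratricopeptide repeats hold the tails of Hsp70 and Hsp90 chaperones, and its U-box recruits a ubiquitin-conjugating E2 enzyme that marks the bound client for the proteasome. In T cells it is known for marking Foxp3, the lineage factor of regulatory T cells, for degradation, and it is expressed in nearly all tissues.

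The data were 15 tables by the authors, each setting 2 groups side by side with 1 FPKM value per group (fragments scaled to gene length and to mapped reads) and a q-value from Cuffdiff. Values of single libraries were not used here, so no spread between pools can be given with a level, and how far 1 pool set a group's value was not tested. Differences with a q under 0.05 in the authors' tables count as called. Of the tables, 5 compared circulating groups, 5 compared the same groups of kidney cells, and 5 set kidney against circulating cells. Groups recur in several tables, each scaled on its own, and the value of Stub1 for 1 group differed by at most 1.15-fold between tables. In bulk RNA, fewer cells of a type and less RNA per cell cannot be told apart.

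The marker genes of T cells summed to between 3923 and 5508 FPKM in circulating cells and to between 191 and 828 FPKM in kidney cells. Proximal tubule markers summed to between 1197 and 8222 FPKM in kidney cells and to between 0.0583 and 0.487 FPKM in circulating cells. The kidney libraries thus held much RNA of tubule genes, and the sums differed between the kidney groups compared below. As means over tables, T cell sums ran from 206 FPKM in SS/CRL on HS to 783 FPKM in SS/MCW on HS. Proximal tubule sums ran from 1301 FPKM in SS/MCW on HS to 7855 FPKM in SS/CRL on LS. The part of these cells in the kidney level of Stub1, and in how little it varied, was not tested.

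The Stub1 gene model lay at chr10:15003669-15012978 in build rn5, a span of 9310 bases. A second model, with the symbols Jmjd8,Wdr24, was listed with the same span, because the authors' tables give overlapping models the outer limits of their cluster. In the RefSeq annotation of build GRCr8, Jmjd8 overlaps Stub1 and lies on the opposite strand. The labels do not say that the libraries kept strand, so reads from the overlap cannot be assigned from these tables. The 250 bases before each start site, from RefSeq in build GRCr8, are shown because the results turn on whether these adjoining genes varied together. Capitals mark the E-box CACGTG, the CCAAT box CCAAT and the GC box GGGCGG, on either strand. The promoter of Stub1 (chr10:15357560-15357809, minus strand) and that of Jmjd8 (chr10:15353243-15353492, plus strand) read as follows.
Stub1: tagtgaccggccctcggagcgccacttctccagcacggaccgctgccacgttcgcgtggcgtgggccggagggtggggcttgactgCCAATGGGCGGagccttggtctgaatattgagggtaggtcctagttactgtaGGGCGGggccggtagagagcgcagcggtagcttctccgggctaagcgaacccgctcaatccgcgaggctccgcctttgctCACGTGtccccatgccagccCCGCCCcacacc
Jmjd8: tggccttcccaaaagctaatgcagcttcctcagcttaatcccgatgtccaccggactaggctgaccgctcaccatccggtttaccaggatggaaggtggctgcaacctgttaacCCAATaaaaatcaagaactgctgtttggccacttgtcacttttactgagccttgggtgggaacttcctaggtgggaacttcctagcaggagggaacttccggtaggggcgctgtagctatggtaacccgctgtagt

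The window before Stub1 held 1 E-box, 1 CCAAT box and 3 GC boxes, and the CCAAT box stood directly before a GC box. Its GC content was 66.4%. The window before Jmjd8 held 1 CCAAT box and no E-box or GC box, at a GC content of 52.4%. Of 33469 rat promoter windows of that length, 5.59% held the E-box, 34.0% the CCAAT box and 30.5% the GC box. Neither window held the heat shock element GAANNTTC, which stood in 7.23% of windows. These matches describe letters and show no binding.

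In circulating cells of SS/MCW rats at 10 weeks, the authors' deposited table listed Stub1 at 413 FPKM on LS and at 74.1 FPKM on HS, 5.58-fold lower on high salt (log2 fold change -2.48, SE 0.41, q = 0.0469). In SS/CRL rats the order was the reverse. Stub1 was listed at 57.5 FPKM on LS and at 280 FPKM on HS, 4.87-fold higher on high salt (log2 fold change 2.28, SE 0.32, q = 0.0106). These values chose the gene and are given as a description. The salt effects of the colonies differed by -4.76 on the log2 scale (SS/MCW minus SS/CRL). The SE was derived from the authors' test statistic.

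Among all models tested, 0.107% were called in the SS/MCW table (18 of 16885) and 0.670% in the SS/CRL table (115 of 17169). Of 16400 models tested in both tables, 6 were called in both, and Stub1 was the only one called in opposite directions. The other 5 carried no symbol and were lower on HS in both colonies. The next models by the same rule moved in opposite directions but were called in SS/CRL alone, and they numbered 7. The nearest of them, a model without a symbol, went from 0.434 to 0.269 FPKM in SS/MCW (q = 0.759) and from 0.431 to 1.53 FPKM in SS/CRL (q = 0.0106). Of the 7 only 2 carried a symbol. Gripap1 went from 29.0 to 26.7 FPKM in SS/MCW (q = 0.998) and from 29.6 to 53.0 FPKM in SS/CRL (q = 0.0106). Rps4x, a ribosomal protein gene, was listed at 407 and 408 FPKM in SS/MCW (q = 0.998) and went from 528 to 360 FPKM in SS/CRL (q = 0.0106).

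By size, Stub1 had the largest absolute log2 fold change in both salt tables, among 8035 models with at least 5 FPKM in both SS/MCW groups and among 8118 such models for SS/CRL. Over the 7963 models at that level in all 4 circulating values, log2 fold changes of the others lay between -1.59 and 1.80 in SS/MCW and between -1.73 and 1.56 in SS/CRL. This describes the values that chose Stub1 and is no separate result.

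**Figure D1:**
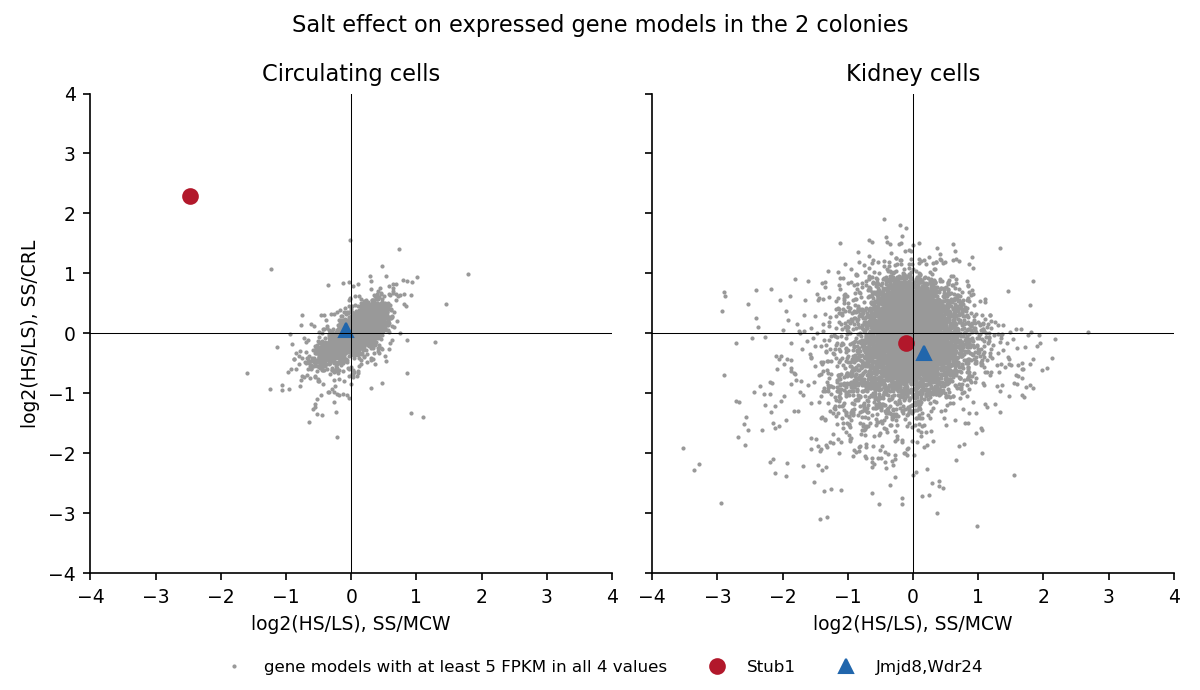
Log2 fold change on high against low salt in SS/MCW (horizontal) and SS/CRL rats (vertical), 1 grey point per gene model with at least 5 FPKM in all 4 values, for circulating (left, 7963 models) and kidney cells (right, 9518 models). In circulating cells Stub1 (red circle) stands alone at -2.48 and 2.28 while the overlapping Jmjd8,Wdr24 model (blue triangle) lies near 0, and in kidney cells both lie within the cloud.

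The colony tables share these 4 groups and show the same values from the other side. On LS, circulating Stub1 was listed at 57.4 FPKM in SS/CRL and at 424 FPKM in SS/MCW rats, 7.39-fold lower in SS/CRL (log2 fold change -2.89, SE 0.33, q = 0.0144), the largest absolute log2 fold change of 8192 models. On HS it was listed at 272 FPKM in SS/CRL and at 74.5 FPKM in SS/MCW rats, 3.66-fold higher in SS/CRL (log2 fold change 1.87, SE 0.42, q = 0.0224), the fifth largest (rank 5 of 8096). The background was 0.541% of models called on LS and 0.241% on HS. Each colony was thus high on 1 chow and low on the other, SS/MCW on LS and SS/CRL on HS.

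Age was compared in circulating cells as well. SS/MCW rats on LS were listed at 297 FPKM at 7 weeks and at 413 FPKM at 10 weeks, a log2 fold change of 0.47 (SE 0.13) that was not called (q = 0.529), where 1.94% of models were called. The SE comes from a deposited statistic of 3.60, which does not match the deposited p of that table, and a normal p of the statistic gave q = 0.383. The 7-week value, which played no part in the choice of Stub1, lay with the high groups. Over the tables, circulating Stub1 took values between 272 and 459 FPKM in the 3 higher groups (SS/MCW on LS at both ages, SS/CRL on HS) and between 57.4 and 82.0 FPKM in the 2 lower groups. No circulating value fell between 82.0 and 272 FPKM.

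In kidney cells Stub1 varied little, and none of the 5 tables called it. SS/MCW cells were listed at 113 FPKM on LS and at 106 FPKM on HS (log2 fold change -0.10, SE 0.93, q = 1.00). SS/CRL cells were listed at 135 FPKM on LS and at 120 FPKM on HS (log2 fold change -0.17, SE 0.61, q = 0.819). Between colonies, kidney Stub1 was 132 FPKM in SS/CRL and 110 FPKM in SS/MCW on LS (log2 fold change 0.26, SE 0.91, q = 0.893). On HS it was 123 FPKM in SS/CRL and 109 FPKM in SS/MCW (log2 fold change 0.18, SE 0.66, q = 0.833). SS/MCW kidney cells on LS were listed at 113 FPKM at 10 weeks and at 112 FPKM at 7 weeks (log2 fold change 0.02, SE 0.88, q = 0.996). In these 5 tables the deposited statistic of Stub1 does not match the deposited p, and the SEs given are larger than that p would give. All kidney values of these tables lay between 106 and 135 FPKM, a range of 1.28-fold, against 7.39-fold between 57.4 and 424 FPKM in the circulating tables.

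The background in kidney was 0.433% of models called for salt in SS/MCW, 5.51% for salt in SS/CRL, 1.81% between colonies on LS, 5.72% between colonies on HS and 1.07% for age. The kidney salt effects of the colonies differed by 0.07 on the log2 scale (SE 1.11, 95% interval -2.11 to 2.25). A z test of that difference gave q = 1.00 after Benjamini-Hochberg adjustment over 16429 models. It passed no model at all, so this q says nothing particular to Stub1. With errors taken from the deposited p, the SE was smaller, at 0.55, and the interval was -1.02 to 1.15. In that setting 60 models passed the z test, and Stub1 did not (q = 0.999). A difference inside these intervals was not detectable, and they do not show that the colonies acted alike. Set beside the circulating effects, the kidney effect exceeded the circulating effect by 2.38 on the log2 scale in SS/MCW, and in SS/CRL it differed from it by -2.45 (kidney minus circulating). These are descriptions, since the circulating effects chose the gene.

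**Figure D2:**
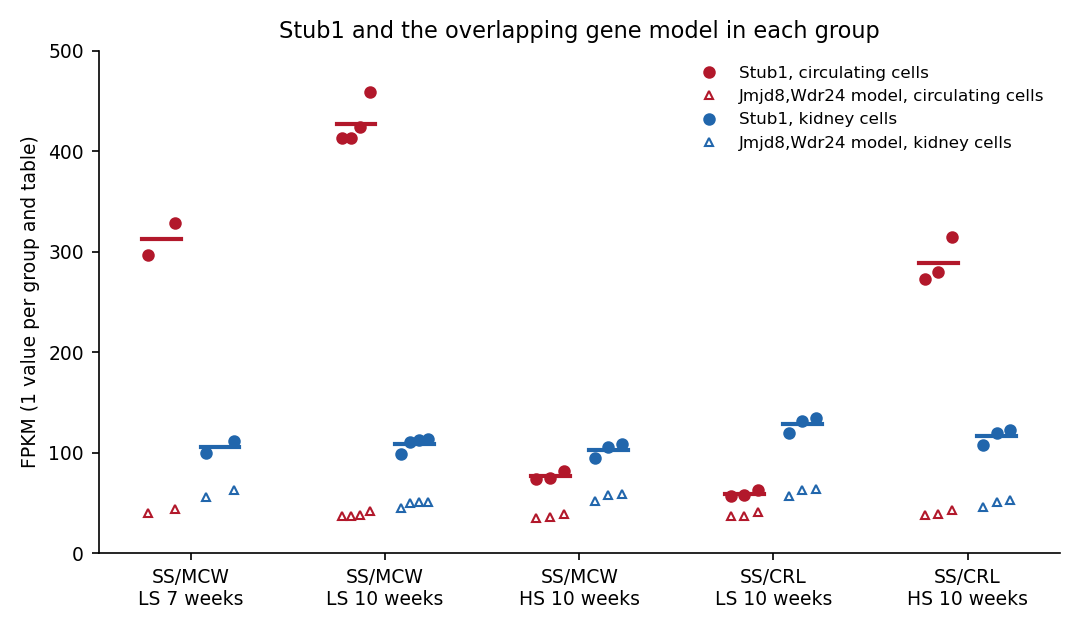
FPKM (linear axis) of Stub1 (filled circles) and of the overlapping Jmjd8,Wdr24 model (open triangles) in each group, 1 point per table that holds the group, with a line at the mean over tables for Stub1. Circulating Stub1 (red) lies between 272 and 459 FPKM in 3 groups and between 57.4 and 82.0 FPKM in 2, while kidney Stub1 (blue) and the overlapping model show no such split.

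Kidney and circulating cells were set against each other in 5 tables, where between 43.6% and 56.7% of all models were called. In SS/MCW rats at 7 weeks, a group outside the choice of Stub1, kidney cells were listed at 99.5 FPKM and circulating cells at 329 FPKM (log2 fold change -1.73, SE 0.41, q = 0.000141, where 56.7% were called). In SS/MCW on LS at 10 weeks the values were 98.8 FPKM in kidney and 459 FPKM in circulating cells (log2 fold change -2.21, SE 0.58, q = 0.000221, 43.6% called). In SS/CRL on HS they were 108 and 314 FPKM (log2 fold change -1.55, SE 0.35, q = 0.000144, 50.9% called). These 3 groups of rats had less Stub1 RNA in kidney cells.

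In the other 2 groups the order was not the same. SS/CRL on LS had 120 FPKM in kidney and 63.2 FPKM in circulating cells (log2 fold change 0.92, SE 0.56, q = 0.00297, 53.5% called). SS/MCW on HS had 95.1 FPKM in kidney and 82.0 FPKM in circulating cells and was not called (log2 fold change 0.21, SE 0.73, q = 0.630, 49.0% called). Kidney levels in these 5 tables spanned 95.1 to 120 FPKM, so the order of the tissues changed with the circulating level. In these tables the median log2 fold change of models with at least 5 FPKM in both tissues was itself off 0, by -0.22, -0.19, -0.22, -0.15 and -0.23 in the order given, and Stub1 kept its direction in all 5 when recentred on it. Stub1 was called in 8 of the 15 tables, all of which held a circulating group. Of these 8, only the SS/MCW table at 7 weeks held no circulating group that had a part in the choice of Stub1. The other calls reuse those groups and are a description.

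Ordered by the mean over tables, the level of Stub1 was 427 FPKM in circulating SS/MCW cells on LS at 10 weeks, 313 FPKM in those at 7 weeks and 289 FPKM in circulating SS/CRL cells on HS. Next came the kidney groups, with 129 FPKM in SS/CRL on LS, 117 FPKM in SS/CRL on HS, 109 FPKM in SS/MCW on LS at 10 weeks, 106 FPKM at 7 weeks and 103 FPKM in SS/MCW on HS. Circulating SS/MCW cells on HS, with 76.9 FPKM, and circulating SS/CRL cells on LS, with 59.4 FPKM, stood last. The 5 kidney groups were not distinguished from each other by any test that was made, and neither were the highest circulating groups at 7 and 10 weeks.

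The overlapping Jmjd8,Wdr24 model did not share the pattern. Jmjd8 encodes a protein with a jumonji domain, and Wdr24 a subunit of the GATOR2 complex that acts on mTORC1 signalling. In circulating SS/MCW cells the model was listed at 37.2 FPKM on LS and at 35.4 FPKM on HS (log2 fold change -0.07, q = 0.998). In SS/CRL cells it was listed at 37.2 FPKM on LS and at 38.7 FPKM on HS (log2 fold change 0.06, q = 0.990). Its circulating values over all tables lay between 35.4 and 44.0 FPKM and its kidney values between 44.6 and 64.3 FPKM. It was called in none of the 5 circulating tables.

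A ratio to this model within a table removes the scaling of the table. Stub1 was 11.1 times the overlapping model in circulating SS/MCW cells on LS at 10 weeks, 7.49 times at 7 weeks and 7.26 times in SS/CRL on HS. The ratio was 2.09 in circulating SS/MCW cells on HS and 1.55 in SS/CRL on LS. In kidney cells it lay between 1.79 and 2.34. The circulating low groups therefore had a ratio near that of kidney cells, and the high and low groups were apart in each of the 4 tables that hold one of each. These 4 tables are made of the groups whose values chose Stub1, so that split is a description and no separate result.

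Of all models, 25.5% (8074) shared their listed span with another model. Among called models this share was 5.56% in the SS/MCW salt table (1 of 18, which was Stub1) and 9.57% in the SS/CRL table (11 of 115). Among tested models, from which calls can come, it was 29.3% in the SS/MCW table (4944 of 16885) and 29.1% in the SS/CRL table (4994 of 17169). These shares describe other models, and the assignment of reads where Stub1 and Jmjd8 overlap was not tested.

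The 10 gene models before Stub1, the 10 after it and the overlapping one were compared in the same way. Of these 21 models, 14 were tested in each of the 5 circulating tables and none was called by the authors' q. Over all models tested, between 0.107% and 1.94% were called in these tables, so no call among 14 is near the background. At an unadjusted p under 0.05 there were 0 for salt in SS/MCW, 3 for salt in SS/CRL, all higher on HS, 0 in each colony table and 2 for age. Over all models such a p stood on 1076 of 16885 and 1576 of 17169 for salt in SS/MCW and SS/CRL. Between colonies it stood on 610 of 17004 on LS and 368 of 16995 on HS, and for age on 2225 of 17103. The median log2 fold change of the adjoining models was 0.09 for salt in SS/MCW and 0.12 in SS/CRL, beside 0.03 and 0.02 over all models tested.

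The nearest model after Stub1, at 126 bases, had no symbol. It went from 5.91 to 7.09 FPKM with salt in SS/MCW (log2 fold change 0.26, q = 0.941) and from 5.18 to 7.06 FPKM in SS/CRL (log2 fold change 0.45, q = 0.259). Rhbdl1, a rhomboid family gene listed with the same span, was between 0.232 and 0.362 FPKM in the circulating salt tables and was not tested. Rhot2, a mitochondrial GTPase gene at 5.9 kb, was listed at 22.9 and 24.7 FPKM in SS/MCW (q = 0.998) and at 23.9 and 26.2 FPKM in SS/CRL (q = 0.845) on LS and HS. Wdr90, at 11.6 kb, stayed between 1.94 and 2.23 FPKM in these tables (q = 0.998 and 0.800).

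Before Stub1, Fbxl16, an F-box gene at 3.7 kb, was between 0.00766 and 0.0466 FPKM in the circulating salt tables. Metrn, a secreted factor gene at 24.3 kb, was between 0.303 and 0.390 FPKM, and neither was tested there. Fam173a, at 28.8 kb, went from 30.6 to 38.1 FPKM in SS/MCW (log2 fold change 0.32, q = 0.862) and from 28.2 to 35.4 FPKM in SS/CRL (log2 fold change 0.32, q = 0.461). CCDC78 shares its span. The expressed models on either side of Stub1 were thus slightly higher on HS in both colonies or near their LS level, and no call came with them. A model without a symbol at 83.3 kb, noted after its values were seen, had opposite signs to those of Stub1. It went from 0.525 to 1.57 FPKM in SS/MCW (q = 0.819) and from 0.582 to 0.108 FPKM in SS/CRL (q = 0.639), and it was not called.

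**Figure D3:**
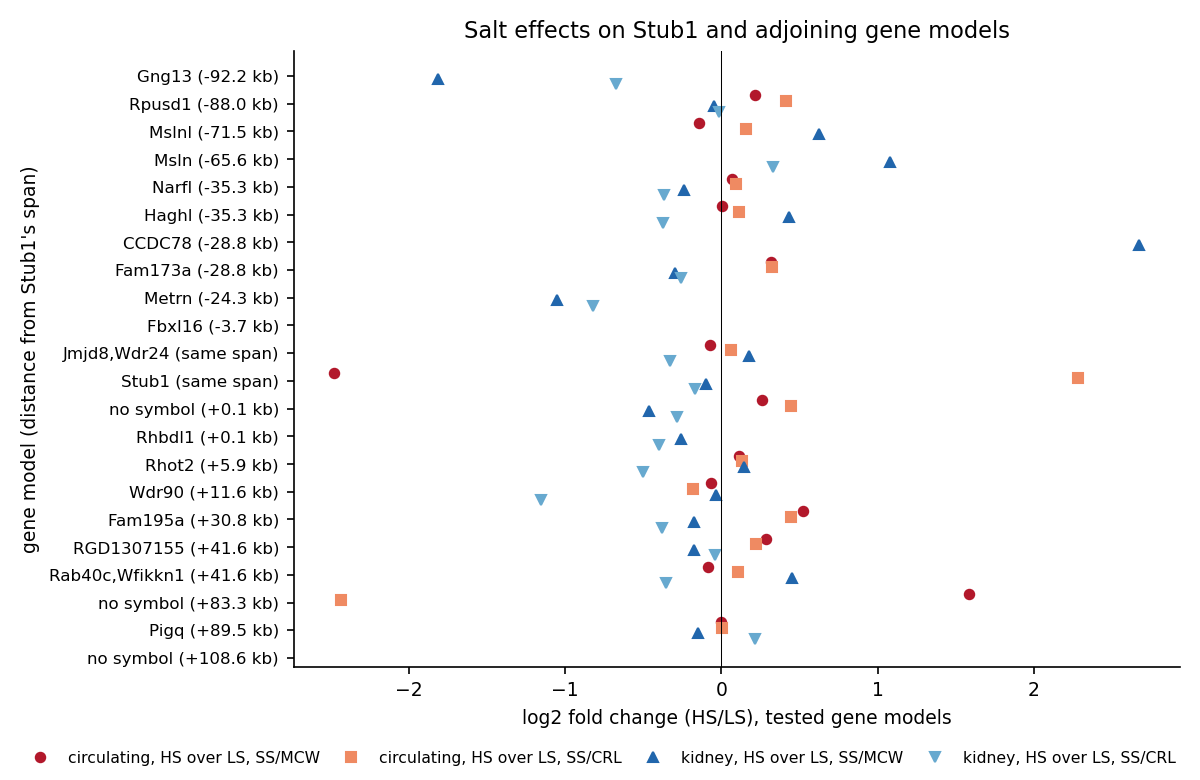
Log2 fold change on high against low salt for Stub1, the overlapping model and 10 gene models on each side, in order along the chromosome with the distance from Stub1 in kb, for circulating cells (red and orange) and kidney cells (blue), tested models only. In circulating cells Stub1 lies at -2.48 (SS/MCW) and 2.28 (SS/CRL), and of the others only a model of at most 1.57 FPKM at 83.3 kb lies far from 0.

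Of these models, 2 were called in kidney tables, a count near the background. For salt in SS/CRL it was 1 of 16 tested (6.25%, beside 5.51% of all models). Between colonies on HS it was 1 of 18 (5.56%, beside 5.72%). Wdr90 fell with salt in SS/CRL from 3.87 to 1.74 FPKM (log2 fold change -1.15, q = 0.0279), and Metrn was higher in SS/CRL than in SS/MCW on HS, at 28.2 against 9.82 FPKM (log2 fold change 1.52, q = 0.00772). Between tissues, 4 to 8 of the 17 to 19 tested adjoining models were called per table, a share of 23.5% to 47.1% that lay below the background of each table. Metrn was higher in kidney in all 5 tables. Rhot2 was higher in kidney in 4 of them, for example with 47.1 FPKM in kidney and 28.0 FPKM in circulating cells of SS/MCW rats at 7 weeks (log2 fold change 0.75, q = 0.000141), where Stub1 was lower in kidney.

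Genes chosen by knowledge of the Stub1 protein were taken in 7 lists of 103 symbols, 100 of which matched 102 gene models. For salt in circulating cells, 88 of these models were tested in SS/MCW and 87 in SS/CRL, and none was called by the authors' q, nor was any of 87 in either colony table. Over all models tested, 0.107% and 0.670% were called for salt, and 0.541% and 0.241% between colonies on LS and HS. No call among so few models is thus near the background. At an unadjusted p under 0.05 there were 7 for salt in SS/MCW (3 higher, 4 lower), 12 for salt in SS/CRL (6 higher, 6 lower), 1 between colonies on LS and 0 between colonies on HS. Over all models such a p stood on 1076 of 16885, 1576 of 17169, 610 of 17004 and 368 of 16995, in that order.

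Among the listed chaperones of the Hsp70 and Hsp90 families, 11 models were tested, with a median log2 fold change of 0.19 in either colony. The list went by family, and binding of each member to Stub1 was not tested. Hsp90ab1, a constitutive Hsp90, had the highest level of them. It went from 674 to 769 FPKM with salt in SS/MCW (log2 fold change 0.19, q = 0.998) and from 701 to 836 FPKM in SS/CRL (log2 fold change 0.25, q = 0.685). The symbol Hspa8, of the constitutive Hsp70, stood on 2 models at low levels, between 2.57 and 4.44 FPKM and between 0.208 and 0.695 FPKM in circulating cells. Such values are uncertain for a gene with near-identical copies. The 24 co-chaperones had medians of 0.16 in SS/MCW and 0.15 in SS/CRL, with single values between -0.16 and 0.43.

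The E2 enzymes hand ubiquitin to the U-box. Ube2d1 went from 13.4 to 17.8 FPKM in SS/MCW (log2 fold change 0.41, q = 0.752) and from 15.5 to 20.1 FPKM in SS/CRL (log2 fold change 0.38, q = 0.656). Ube2n, an E2 that works with Ube2v1, stood on 2 models. The higher of them was listed at 5.78 and 7.14 FPKM in SS/MCW (q = 0.985) and at 8.92 and 6.72 FPKM in SS/CRL (q = 0.635), on LS and HS. The 7 tested E2 models had medians of 0.15 in SS/MCW and -0.00 in SS/CRL. The other U-box ligases had medians of -0.01 and 0.02 over 6 models.

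Ligases and deubiquitinases of protein quality control had medians of -0.13 in SS/MCW and -0.16 in SS/CRL over 15 tested models. Atxn3, a deubiquitinase that trims chains made by Stub1, went from 14.8 to 12.5 FPKM in SS/MCW (log2 fold change -0.23, q = 0.998) and from 14.3 to 12.4 FPKM in SS/CRL (log2 fold change -0.20, q = 0.752). Among genes whose proteins are described as clients or substrates, Foxp3 was listed at 13.1 FPKM on LS and 12.6 FPKM on HS in SS/MCW (log2 fold change -0.05, q = 0.998) and at 12.3 and 13.2 FPKM in SS/CRL (log2 fold change 0.10, q = 0.957). The clients had medians of -0.05 over 23 tested models and -0.06 over 22. These are RNA levels, and the protein clients of the ligase were not measured. Heat shock factors had medians of 0.04 and -0.00 over 2 tested models.

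**Figure D4:**
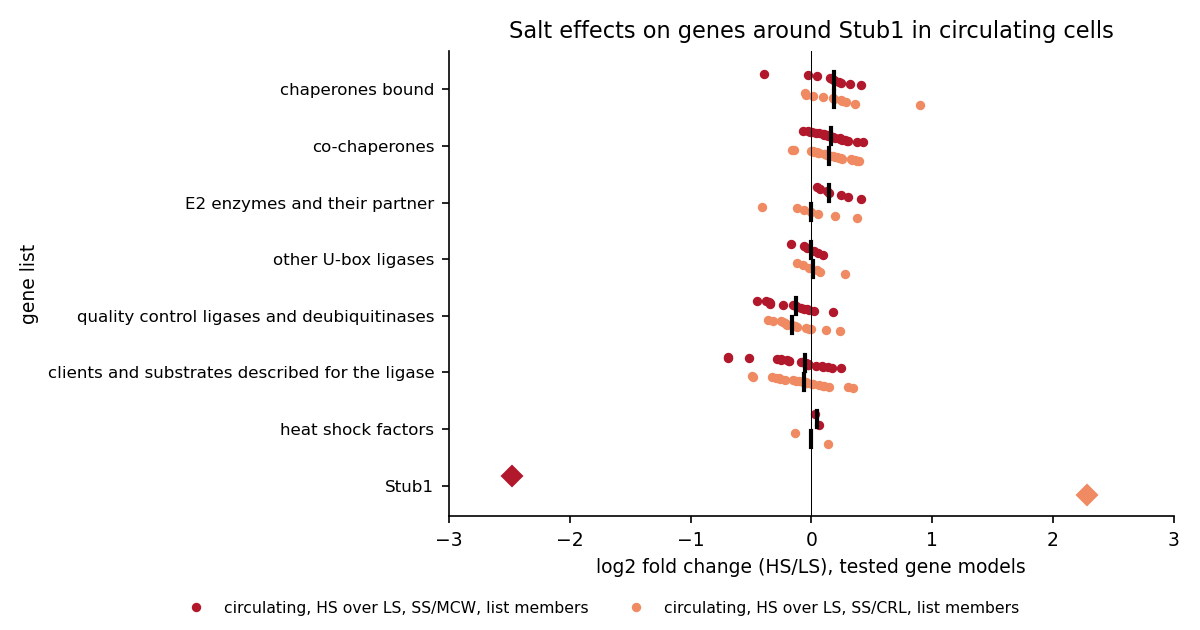
Log2 fold change on high against low salt in circulating SS/MCW (red) and SS/CRL (orange) cells for the tested members of 7 gene lists, with a black bar at each list's median and diamonds for Stub1. All list members lie between -0.69 and 0.90 in the 2 colonies, and Stub1 lies at -2.48 and 2.28.

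In the other tables few list members were called. With age, 2 of 88 tested members were higher at 10 weeks in circulating SS/MCW cells, both in the client list. That share of 2.27% was near the 1.94% of all models called. The 2 genes, Nr3c1 and Insr, were added after their values were seen. A model with the symbol NR3C1, of the glucocorticoid receptor, was listed at 5.63 FPKM at 7 weeks and at 11.1 FPKM at 10 weeks (q = 0.0151). A second model, Nr3c1, was listed at 16.5 and 20.6 FPKM and was not called (q = 0.371). Insr, of the insulin receptor, was at 0.756 and 1.50 FPKM (q = 0.0151). In kidney cells none of the list members was called for salt in SS/MCW, between colonies on LS or for age, and 1, 4 and 4 had an unadjusted p under 0.05. Over all models 0.433%, 1.81% and 1.07% were called there, and 828 of 19385, 1743 of 18032 and 1500 of 18869 had such a p.

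For salt in SS/CRL kidney cells 3 of 92 tested members were called, all lower on HS. Nox4, an NADPH oxidase of the kidney, fell from 26.8 to 12.4 FPKM (log2 fold change -1.11, q = 0.00171). Il4r, the interleukin-4 receptor, fell from 31.6 to 17.9 FPKM (log2 fold change -0.82, q = 0.00458). Syvn1, a ligase of the endoplasmic reticulum, fell from 33.8 to 20.7 FPKM (log2 fold change -0.71, q = 0.0313). Between colonies on HS, 4 of 95 were called, all lower in SS/CRL. Cblb, a ligase that restrains T cell activation, was at 3.99 FPKM in SS/CRL and 8.99 FPKM in SS/MCW (log2 fold change -1.17, q = 0.00538), Runx1 at 2.29 and 7.06 FPKM (q = 0.0400) and Myc at 25.9 and 51.4 FPKM (q = 0.00538). Stub1 was not called in either table. The shares called were near or below the background of these tables. The kidney groups also differed in marker sums, given as means over tables. On HS the T cell sum was 206 FPKM in SS/CRL and 783 FPKM in SS/MCW, while the proximal tubule sum was higher in SS/CRL (2492 against 1301 FPKM). With salt in SS/CRL the proximal tubule sum fell from 7855 to 2492 FPKM, and the distal tubule sum rose from 1404 to 2076 FPKM. The part of these cells in the calls was not tested.

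Between tissues, 19 to 23 list members were called higher and 23 to 42 lower in kidney per table, while over all models more were called higher than lower in each table (7598 against 5519 in SS/MCW rats at 7 weeks). The share of tested list members called was 64.6% there, 43.3% in SS/MCW on LS at 10 weeks, 50.5% in SS/MCW on HS, 63.2% in SS/CRL on LS and 64.6% in SS/CRL on HS. The backgrounds were 56.7%, 43.6%, 49.0%, 53.5% and 50.9% in that order, so the share was near background in the SS/MCW groups at 10 weeks. All calls among the E2 models were lower in kidney. Ube2d3 was lower in all 5 tables, with 101 FPKM in kidney and 233 FPKM in circulating cells of SS/MCW rats at 7 weeks (log2 fold change -1.21, q = 0.000141), and Ube2d1 was lower in 3 of them. Bag2, a co-chaperone that inhibits Stub1, was higher in kidney in all 5, with 16.4 FPKM against 0.982 FPKM in those rats (log2 fold change 4.06, q = 0.000141). Dnajb6 and Fkbp5, co-chaperones of Hsp70 and Hsp90, were among those lower in kidney, with 30.6 against 93.9 FPKM and 7.76 against 30.4 FPKM in SS/CRL on HS (q = 0.000144 for each).

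Hspa9, the mitochondrial Hsp70, was higher in kidney in all 5 tables, with 89.3 against 49.5 FPKM in SS/MCW at 7 weeks (log2 fold change 0.85, q = 0.000141). Hsf1, the heat shock transcription factor, was at 23.0 and 47.2 FPKM there (log2 fold change -1.03, q = 0.00397), and Hsf2 was at 5.83 and 3.36 FPKM (log2 fold change 0.79, q = 0.00491). Among the other U-box ligases Ube4a was lower in kidney in all 5 tables and Wdsub1 higher in all 5, with 8.41 against 17.6 FPKM and 11.6 against 1.67 FPKM in those rats (q = 0.000141 for each). Among substrates, Mapt, which encodes tau, was at 10.2 and 0.178 FPKM (q = 0.000141) and Foxp3 at 3.53 and 14.4 FPKM (log2 fold change -2.02, q = 0.000141). Foxp3 was called lower in 3 of the 5 tables. Nedd4l, a ligase that acts on the epithelial sodium channel, was higher in kidney in all 5, and Cblb lower in all 5, with 22.0 against 1.20 FPKM and 3.77 against 22.1 FPKM (q = 0.000141 for each). Tubule and T cell genes differ between these tissues as given above, and their part in these differences was not tested.

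Markers of other cells were read in the circulating salt tables, where Stub1 moved. The 10 T cell markers summed to 3992 FPKM on LS and 4724 FPKM on HS in SS/MCW, and to 3934 and 4452 FPKM in SS/CRL. Of the 10, 8 were higher on HS in each colony and none was called. The 4 erythroid models summed to 53.5 and 65.9 FPKM in SS/MCW, with none called, and to 76.4 and 141 FPKM in SS/CRL, with 3 called higher. The 4 platelet models summed to 28.4 and 40.3 FPKM in SS/MCW and to 25.4 and 47.4 FPKM in SS/CRL, with 1 called higher in the latter. The 2 granulocyte models summed to 25.7 and 13.6 FPKM in SS/MCW and to 26.1 and 7.95 FPKM in SS/CRL, with 2 called lower in the latter. Of the 7 macrophage markers, which summed to between 44.6 and 62.2 FPKM in the 10-week groups of the circulating tables, none was called and C1qa and C1qb were listed at 0. The CD4 and CD8 genes summed to 576 and 631 FPKM in SS/MCW and to 587 and 629 FPKM in SS/CRL, the B cell models to 26.2 and 33.6 FPKM and to 49.4 and 54.3 FPKM, and the natural killer models to 170 and 189 FPKM and to 222 and 230 FPKM, with none called. Fibroblast sums were at 0.00824 FPKM or less in all circulating values. The T cell, CD4 and CD8, B cell, natural killer, erythroid, platelet, granulocyte and macrophage sums moved in the same direction in both colonies. The tubule sums moved as Stub1 did, at low levels. The 5 proximal tubule models summed to 0.127 FPKM on LS and 0.0583 FPKM on HS in SS/MCW, with 0 of 5 higher on HS and Slc22a6 listed at 0, and to 0.164 and 0.438 FPKM in SS/CRL, with 4 of 5 higher. The 5 distal tubule models summed to 6.05 and 5.78 FPKM in SS/MCW, with 2 of 5 higher on HS, and to 5.90 and 6.92 FPKM in SS/CRL, with 4 of 5 higher and 1 called. Aqp2 was listed at 0 on LS in both colonies. The endothelial sum moved the other way in each colony, from 25.8 to 27.0 FPKM in SS/MCW and from 29.4 to 28.6 FPKM in SS/CRL. The part of any of these cells in the Stub1 values was not tested.

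Which other genes followed the order of Stub1 was asked over 8627 models with a symbol and at least 1 FPKM in every group and table. Pearson's r was taken over the 10 groups, on log2 means centred within each tissue, and is given as a description with no p. Among the highest values were 0.75 for Vps18, 0.75 for the model Tm7sf2,Vps51,rno-mir-6315, 0.62 for Pak4 and 0.59 for Hdac3. The lowest were -0.79 for Lancl2, -0.71 for Gnb5, -0.69 for Dnajc18, -0.67 for Rabep1 and -0.65 for Coa5. No model had an r above 0.9. The 10 points come from tables that share groups and scaling.

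The spans of the levels are given as a description, since the circulating span of Stub1 is made of the values that chose it. Between the highest and the lowest circulating group Stub1 spanned 2.85 on the log2 scale, beside a median span of 0.29, and none of the other models spanned as much. The nearest in r spanned far less, with 0.24 for Vps18 and 0.99 for Tm7sf2,Vps51,rno-mir-6315. In kidney the span of Stub1 was 0.32, beside a median of 0.59, and 7288 of the models spanned at least as much.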

How the data were processed

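RNA of 40 libraries from circulating and kidney T cells, 4 per group, was sequenced by the authors. Reads were handled with cutadapt, Trim Galore 0.2.5, TopHat, TopHat2 2.1.1, Cufflinks 2.2.1 and Cuffdiff on build rn5, per the submitters' processing notes. The 15 deposited tables give FPKM, 1 value per group, computed by the authors, with the deposited p-value and q-value of each comparison and a test statistic, a score of Cuffdiff, per the file headers. Log2 fold changes were computed here from the deposited FPKM with HS, SS/CRL, 10 weeks and kidney always as the numerator, so 1 table was reversed. Calls use a q under 0.05 in the authors' tables. Standard errors were the log2 fold change divided by the test statistic. The z test of a difference was tested on simulated data drawn with the same standard errors. That checks the calculation and cannot show whether those errors are right for these data. Depth and the precision it gives are unknown.

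Stub1 and the gene lists were chosen with earlier results of these data known. Named genes were Stub1, models overlapping it or within 1000 bases, the nearest 3 with a symbol on each side, up to 3 called members per list and comparison with at least 5 FPKM, a few members always named, and the 5 models most and least alike; of the many called between tissues, examples are given, and a few genes within this rule are not reported here. Symbols of 100 of 103 listed genes matched; Ube2w, March5 and Ins2 did not. Insr and Nr3c1 were added after their values were seen. Marker lists covered T cells, CD4 and CD8, B cells, natural killer cells, macrophages, erythroid cells, platelets, granulocytes, tubules, endothelium and fibroblasts. Alternatives were a q of 0.01, a filter at 1 FPKM, a normal p, recentring, a pseudocount of 1 and other numbers of neighbours. Scripts ran in Python 3.11.15 with numpy 2.4.6, pandas 2.3.3, scipy 1.17.1 and matplotlib 3.10.9.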

Additional observations from a re-analysis of the deposited data

How the results depend on the processing

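No paired analysis was possible because the deposited tables hold 1 value per group and none per library, so no replicate block could be fitted and no replicate could be left out. At a q under 0.01 the circulating calls of Stub1 were lost, with q = 0.0469 for salt in SS/MCW, 0.0106 for salt in SS/CRL, 0.0144 between colonies on LS and 0.0224 between colonies on HS. Their deposited p was 5e-05, the smallest in the tables. These q-values were also the smallest of any model in each of those tables. No model there could therefore pass 0.01, and the loss says nothing particular to Stub1. With a normal p of the test statistic the call of kidney against circulating cells in SS/CRL on LS was lost (q = 0.226, and 0.150 after recentring), since the deposited p and the statistic do not match there. For Stub1 they did not match in any table with a deposited p above 5e-05, the circulating age table and the kidney tables among them. For salt in SS/CRL kidney cells, for example, the statistic was -0.275 beside a deposited Cuffdiff p of 0.577. Where the p was 5e-05 the match cannot be judged. Recentring turned the kidney age difference from 0.0190 to -0.0259 on the log2 scale (q = 1). The 2 circulating list calls became 0 at a q under 0.01. The 2 kidney calls among adjoining models became 1 at a q under 0.01 and 10 with 20 models on each side, and the 30 calls between tissues became 67. The numbers tested with 20 models on each side are not given here, so the counts of 10 and 67 cannot be set against the background. The statement that the kidney calls were near the background holds for 10 models on each side only. Directions of Stub1 were the same in the other fits listed in the methods, the cause of the other losses was not tested, and depth cannot be judged without counts.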
